A study of Mus musculus with 8 samples.

Results

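Skeletal muscle fibre genes were followed here across 8 arrays of mouse mammary tumour RNA. The set holds 37 of the 21368 genes that the arrays name. It was put together from textbook sarcomere, calcium-handling and muscle energy genes because the array labelled WT 2 held muscle signal, so they were chosen by their log2 ratios on WT 2, and those are described without a test. By role, 14 are fast fibre isoforms, 9 slow fibre isoforms, 2 developmental myosins, 8 structural or triad genes shared by fibre types, and 4 metabolic genes. All 37 were found through the RefSeq accession of at least 1 probe.

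Per the labels, 4 tumours (FGFR1 KO 1 to 4) came from K19-tva mice carrying fgfr1loxP/loxP, and 4 (WT 1 to 4) from control K19-tva mice, all on the FVB background. K19-tva mice are named for the keratin 19 promoter and the avian virus receptor tva that it drives. How the floxed gene was deleted and in which cells, what started the tumours, the age of the mice, and whether each tumour came from its own mouse are not stated in the labels, so p-values measure only the spread between these samples. Each tumour was hybridised to 1 2-colour Agilent array against a common human reference RNA, and a value below is the log2 ratio of tumour (red) to reference (green). Values of different probes are not compared as levels. Only differences between arrays are.

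The share of spots with red well above background was 68.9% to 83.9% in FGFR1 KO and 43.9% to 69.2% in WT. The number of arrays limits the precision of each value. The FGFR1 KO arrays lay in 1 row of the slide and the WT arrays in the other, so the slide row cannot be told apart from the genotype. None of the 3 Fgfr1 probes had all FGFR1 KO arrays below all WT arrays, and FGFR1 KO 3 was above every WT array on 2 of them. Where the probes lie relative to the floxed part was not known here, and arrays are therefore called by their labels. WT 2 stood apart: its log ratios correlated with those of the others at 0.365 on average, while the rest ran from 0.560 to 0.678. Its 9 luminal epithelial markers were the lowest of the 8 arrays in 9 of 9 cases, with a list median of -0.34 against 1.57 to 2.56 elsewhere. Only 4 of the 9 were above background on WT 2. The basal epithelial markers were above background there in 5 of 5 cases and lowest of the 8 arrays in 3. Which tissue that sample held was not tested.

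As background, a skeletal muscle fibre contracts when myosin heavy chains pull on actin filaments. Calcium released from the sarcoplasmic reticulum switches the contact on through troponin. Fast and slow fibres use different genes for the same parts: separate myosin heavy and light chains, troponins T, I and C, myosin-binding proteins and calcium stores. Fast fibres rely more on phosphocreatine and glycogen, slow fibres more on mitochondria and myoglobin. Embryonic and perinatal myosins are used before birth and again when muscle regenerates.

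The sarcomeric myosin heavy chain genes of fast and developing fibres sit side by side on chromosome 11 in the order Myh3, Myh2, Myh1, Myh4, Myh8. Upstream bases of these neighbours are shown because Myh2, Myh1, Myh4 and Myh8 were all high on WT 2 while their neighbour Myh3 was not above background there, and those of Acta1, the skeletal alpha-actin gene, because its CArG box is a textbook muscle promoter element. Each line gives the 250 bases before the RefSeq start of the gene, 5′ to 3′, on build GRCm38.p6. Capitals mark a match to the MEF2 or the CArG motif.
Myh3, chr11:67078050-67078299, plus strand: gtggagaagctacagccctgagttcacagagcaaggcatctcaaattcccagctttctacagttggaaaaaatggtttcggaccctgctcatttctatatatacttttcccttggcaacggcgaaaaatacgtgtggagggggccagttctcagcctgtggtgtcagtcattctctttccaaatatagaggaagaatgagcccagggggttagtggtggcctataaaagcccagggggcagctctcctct
Myh2, chr11:67170777-67171026, plus strand: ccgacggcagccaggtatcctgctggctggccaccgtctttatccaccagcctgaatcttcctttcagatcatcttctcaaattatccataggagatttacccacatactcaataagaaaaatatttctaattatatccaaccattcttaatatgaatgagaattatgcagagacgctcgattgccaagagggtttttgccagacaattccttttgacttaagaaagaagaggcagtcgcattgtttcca
Myh1, chr11:67199852-67200101, plus strand: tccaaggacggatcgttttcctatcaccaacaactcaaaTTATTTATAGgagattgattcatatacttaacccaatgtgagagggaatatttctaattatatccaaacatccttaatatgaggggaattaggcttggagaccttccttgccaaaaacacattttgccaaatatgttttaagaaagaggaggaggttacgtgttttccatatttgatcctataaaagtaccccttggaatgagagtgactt
Myh4, chr11:67237562-67237811, plus strand: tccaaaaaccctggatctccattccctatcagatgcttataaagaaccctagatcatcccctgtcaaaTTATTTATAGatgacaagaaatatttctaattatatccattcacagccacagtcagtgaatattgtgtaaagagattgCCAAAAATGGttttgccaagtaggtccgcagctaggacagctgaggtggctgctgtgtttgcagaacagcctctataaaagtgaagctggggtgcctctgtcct
Myh8, chr11:67276874-67277123, plus strand: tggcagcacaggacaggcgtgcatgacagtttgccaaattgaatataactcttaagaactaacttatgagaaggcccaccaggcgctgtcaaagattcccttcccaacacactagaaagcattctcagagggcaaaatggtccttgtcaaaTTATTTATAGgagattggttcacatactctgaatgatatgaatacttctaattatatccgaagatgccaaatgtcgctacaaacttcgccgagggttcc
Acta1, chr8:123894776-123895025, minus strand: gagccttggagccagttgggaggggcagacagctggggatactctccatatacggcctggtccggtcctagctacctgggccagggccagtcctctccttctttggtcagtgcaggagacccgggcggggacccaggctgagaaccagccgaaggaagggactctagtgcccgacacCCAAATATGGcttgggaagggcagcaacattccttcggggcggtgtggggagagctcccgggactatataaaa

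In these windows Myh1, Myh4 and Myh8 held the same 10-base MEF2 match, TTATTTATAG, at 211 to 202, 182 to 173 and 99 to 90 bases before the start. Myh4 also held the CArG match CCAAAAATGG at 104 to 95 bases, and Acta1 the CArG match CCAAATATGG at 73 to 64 bases. No MEF2 or CArG letters were found in the windows of Myh3 and Myh2. A window was listed for 30 of the 37 members and was searched on both strands. MEF2 matched in 7 of the 30 against 3.415% of 27025 genes, and CArG in 4 of the 30 against 1.624%. The MEF2 matches were upstream of Casq2, Myh1, Myh4, Myh8, Myoz2, Pvalb and Ttn, so fast, slow, developmental and structural members were all among them. The E-box CANNTG matched in 26 of 30 (69.3% of all genes), CATTCC in 9 (14.4%) and TATAAA in 8 (14.3%). The MEF2 matches of Myh1, Myh4 and Myh8 each overlap a TATAAA match on the other strand. A match is a description of letters and says nothing about binding.

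WT 2 had the highest value of the 8 arrays for 37 of the 37 members. The excess on WT 2, meaning its value minus the median of the other 7 arrays, had a median of 7.40 on the log2 scale over the members and ran from 0.95 to 10.02. It reached 3 log2 (8-fold) for 31 of 37 members, beside 1.17% of all 55628 probes with a value. This height chose the genes, so nothing is read from the count. On WT 2 the list median was 7.72. It was 0.93 for WT 1, and the other 6 arrays ran from -0.07 to 0.29. In bulk RNA of this kind, fewer cells of a type and less RNA per cell cannot be told apart. In red signal alone, the median excess was 7.71, and in the green reference it was -0.05 (range -1.61 to 1.74), so the difference lay in the red tumour channel.

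**Figure D1:**
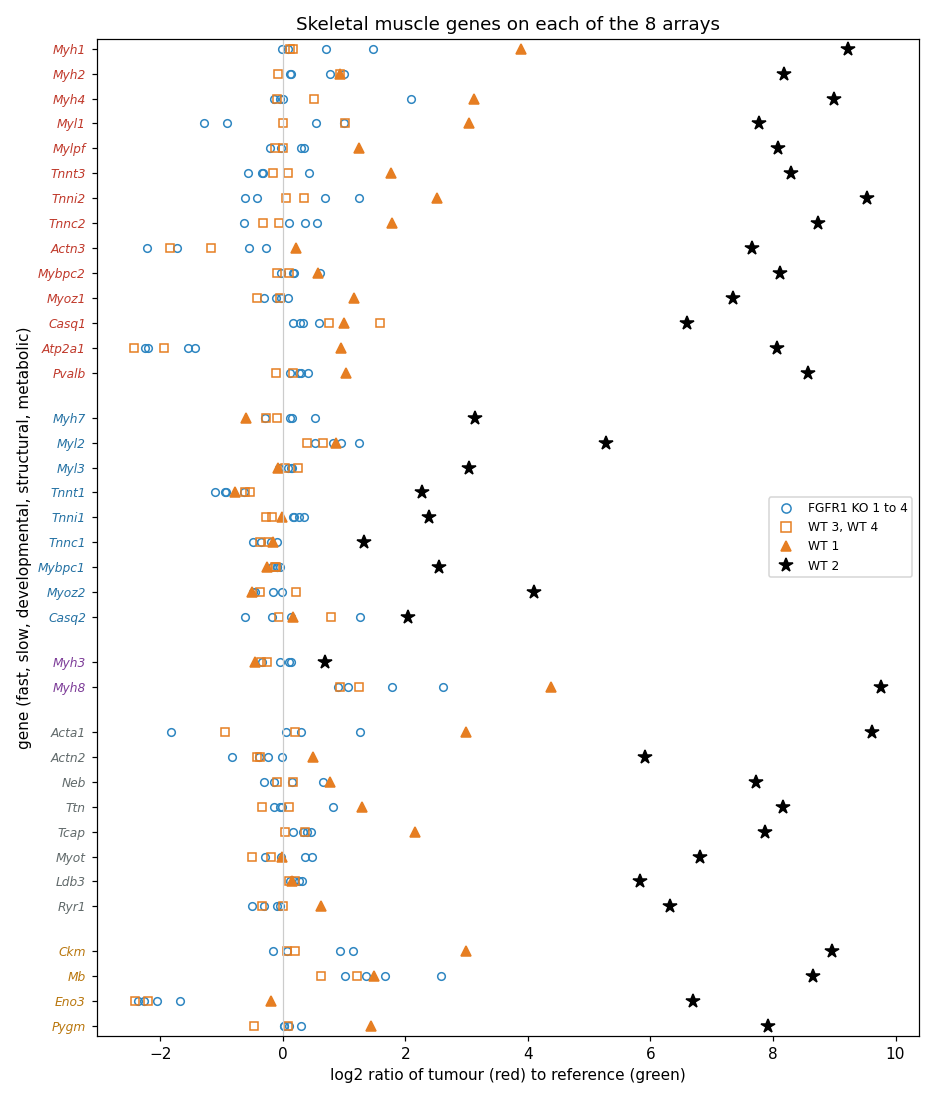
Log2 ratio of tumour to reference (horizontal axis) for each of the 37 genes (vertical axis, coloured by role) on each array. Stars (WT 2) lie right of every other symbol, and filled triangles (WT 1) lie right of the remaining 6 arrays for 21 of the 37 genes.

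Fast fibre isoforms had the largest median excess of the 5 classes on WT 2. It was 8.38, the values ran from 6.02 to 10.02, and 14 of 14 reached 3 log2. Atp2a1 encodes the calcium pump of fast fibres (SERCA1) and had the highest excess of the set as a ratio. In red signal alone its excess was 8.93, and that of Ckm was the highest at 9.83. Atp2a1 read -2.26, -1.44, -1.54 and -2.20 on FGFR1 KO 1 to 4 and 0.95, 8.07, -1.95 and -2.43 on WT 1 to 4. WT 2 was highest and WT 1 next, and the other 6 arrays lay together. Tnni2, the inhibitory troponin of fast fibres, read -0.62, 1.24, 0.68 and -0.43 on the FGFR1 KO arrays and 2.52, 9.54, 0.05 and 0.35 on WT 1 to 4. Tnnt3, the fast troponin T that ties the complex to tropomyosin, read -0.56, 0.42, -0.34 and -0.33 on the FGFR1 KO arrays and 1.76, 8.30, -0.16 and 0.08 on WT 1 to 4. For both, the order of WT 2, then WT 1, then the rest was the same. Tnnc2, the fast calcium-binding troponin, had an excess of 8.63.

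The adult fast myosins followed the same order with 1 exception. Myh1, the IIx heavy chain, read -0.02, 0.70, 1.46 and 0.08 on the FGFR1 KO arrays and 3.88, 9.23, 0.16 and 0.11 on WT 1 to 4. Myh4, the IIb heavy chain of the fastest fibres, read -0.04, 2.09, -0.15 and 0.01 on the FGFR1 KO arrays and 3.12, 8.99, 0.50 and -0.10 on WT 1 to 4. On WT 1 both were well above the other WT arrays, and FGFR1 KO 2 stood above the other FGFR1 KO arrays for Myh4. Myh2, the IIa heavy chain of fast oxidative fibres, read 0.14, 0.78, 0.99 and 0.11 on the FGFR1 KO arrays and 0.93, 8.18, 0.93 and -0.07 on WT 1 to 4, so WT 1 did not stand out from WT 3 or FGFR1 KO 3 there. In red signal, WT 2 was 698-fold over the FGFR1 KO mean for Myh4, which was above background on 4 of the 4 FGFR1 KO arrays. Its probe lies in the block of bright negative controls described below, where 69.8% of them exceeded 50 red units on some array. Before normalization, its red signal over background was 46 to 174 on the FGFR1 KO arrays, so the fold is set against low signal. Myh1 and Myh2 were above background on 1 of the 4 FGFR1 KO arrays, so most of their values on these arrays are background and no fold is given. The myosin heavy chains are near-identical copies in much of their coding sequence, and cross-hybridisation between them was not tested.

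Among the other fast members, the essential light chain Myl1 read -0.92, 1.00, 0.53 and -1.29 on the FGFR1 KO arrays and 3.04, 7.78, -0.01 and 1.01 on WT 1 to 4. It was above background on 2 of the 4 FGFR1 KO arrays, so its order among them is not read. The regulatory light chain Mylpf had an excess of 8.08 by its representative probe, but its other probe, which names a predicted transcript and was above background on 6 of 8 arrays, gave 0.21. The fast alpha-actinin Actn3, a Z-disc crosslinker, had an excess of 8.83 and the fast myosin-binding protein Mybpc2 of 7.95. Myoz1, a calcineurin-binding Z-disc protein of fast fibres, had 7.39, and Pvalb, the calcium buffer parvalbumin, 8.31. Casq1, the calcium store protein of fast fibres, had the smallest excess of the class by representative probe at 6.02, and it read 0.33, 0.58, 0.28 and 0.17 on the FGFR1 KO arrays and 1.00, 6.60, 0.75 and 1.59 on WT 1 to 4.

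Slow fibre isoforms were also highest on WT 2, with a smaller excess. Their median was 2.96, the range was 1.55 to 4.47, and 4 of 9 reached 3 log2. By the representative probes, the ranges of the fast and slow excess did not overlap. The gap depends on the choice of probe: the other probe of the fast Mylpf gave 0.21 and that of the slow Mybpc1 8.53. Myh7, the slow (type I) and cardiac ventricular heavy chain, read 0.53, -0.30, 0.15 and 0.11 on the FGFR1 KO arrays and -0.60, 3.13, -0.28 and -0.10 on WT 1 to 4. Myl2, the slow and ventricular regulatory light chain, read 0.82, 1.24, 0.52 and 0.96 on the FGFR1 KO arrays and 0.87, 5.28, 0.66 and 0.39 on WT 1 to 4. For both, WT 1 lay among or below the other 6 arrays. Tnni1, the slow inhibitory troponin, read 0.17, 0.26, 0.17 and 0.34 on the FGFR1 KO arrays and -0.01, 2.38, -0.27 and -0.18 on WT 1 to 4.

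The remaining slow members had an excess of 2.96 for the essential light chain Myl3, 3.06 for the slow troponin T gene Tnnt1 (1.21 by its other probe), 1.55 for Tnnc1, the troponin C of slow and cardiac muscle, and 1.90 for Casq2, the cardiac and slow calcium store protein. Myoz2, the Z-disc protein of slow and cardiac muscle, had 4.47. It was not well above background on any of the FGFR1 KO arrays or of WT 1, 3 and 4, and in red signal WT 2 was at least 17.9-fold higher than FGFR1 KO, set against the lowest signal above background. Mybpc1, the slow myosin-binding protein, has probes that disagree: the representative probe gave an excess of 2.65, and the other probe, which names another transcript of the gene, 8.53.

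**Figure D2:**
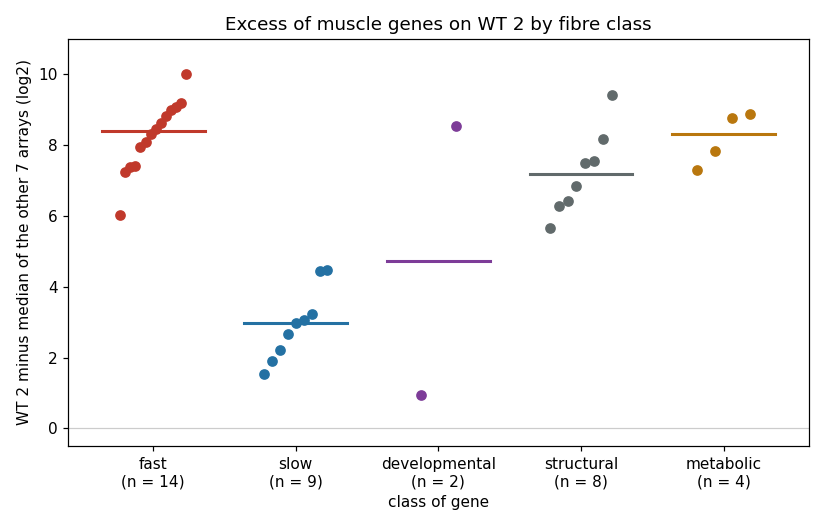
Excess of each gene on WT 2 over the median of the other 7 arrays (vertical axis, log2) by class (horizontal axis), with a point per gene and a bar at the class median. By representative probe, fast genes lie between 6.02 and 10.02 and slow genes between 1.55 and 4.47. The 2 developmental myosins lie far apart at 0.95 and 8.53.

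The 2 developmental myosins differed from each other. Myh8, the perinatal heavy chain, read 1.06, 2.61, 1.78 and 0.89 on the FGFR1 KO arrays and 4.38, 9.76, 1.24 and 0.93 on WT 1 to 4, an excess of 8.53. A further Myh8 probe gave 8.20. Myh3, the embryonic heavy chain, read 0.10, 0.13, -0.35 and -0.06 on the FGFR1 KO arrays and -0.45, 0.69, -0.36 and -0.26 on WT 1 to 4. It was not well above background on any array, WT 2 included, so its excess of 0.95 carries no fold. Both of its probes were dim on all 8 arrays. Myh3 and Myh8 flank the adult fast genes Myh2, Myh1 and Myh4 in the chromosome 11 row shown above.

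Structural genes used by all fibre types had a median excess of 7.17 (range 5.65 to 9.41), and 8 of 8 reached 3 log2. Acta1, the thin filament actin, read 1.25, 0.29, 0.05 and -1.83 on the FGFR1 KO arrays and 3.00, 9.61, -0.95 and 0.20 on WT 1 to 4. The giant spring protein Ttn had an excess of 8.17, the thin filament ruler Neb 7.56, the titin cap Tcap 7.51, the Z-disc proteins Myot 6.84 and Ldb3 5.65 (3.57 by the other Ldb3 probe), and the calcium release channel Ryr1 6.42. Actn2, the alpha-actinin of all fibres, had 6.29 and was dim on the other 7 arrays, so WT 2 was at least 154-fold higher than FGFR1 KO in red signal.

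Metabolic members had a median excess of 8.30 (range 7.29 to 8.89). Ckm, the muscle creatine kinase that regenerates ATP from phosphocreatine, read -0.16, 1.14, 0.94 and 0.07 on the FGFR1 KO arrays and 2.99, 8.97, 0.20 and 0.07 on WT 1 to 4. Mb, the oxygen store myoglobin, read 1.01, 1.66, 1.36 and 2.59 on the FGFR1 KO arrays and 1.48, 8.65, 0.62 and 1.22 on WT 1 to 4, and there WT 1 lay inside the range of the FGFR1 KO arrays. The muscle enolase Eno3 had an excess of 8.89 and the glycogen phosphorylase Pygm 7.83.

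WT 1 also read high for several fast muscle genes. By representative probe, it was the highest of the 7 arrays other than WT 2 for 21 of 37 members. These were 11 of 14 fast, 0 of 9 slow, 1 of 2 developmental, 6 of 8 structural and 3 of 4 metabolic. The same share over all probes was not computed, so nothing is read from the count. Among fast members, Myh2, Mylpf and Mybpc2 were not above background on WT 1. The other probe of the slow gene Mybpc1 read 2.08 on WT 1, -0.08 to 0.30 on the FGFR1 KO arrays, and 0.84 and 0.59 on WT 3 and 4. It was above background on 2 of the 8 arrays. The median of WT 1 minus the FGFR1 KO median was 1.45 over fast members and -0.17 over slow members. The difference was highest for Myh1 (3.49), Myl1 (3.23) and Myh4 (3.14) and lowest for Myh7 (-0.73). WT 1 and WT 2 were both set against the same FGFR1 KO arrays here, so the 2 sets of differences are not independent.

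**Figure D3:**
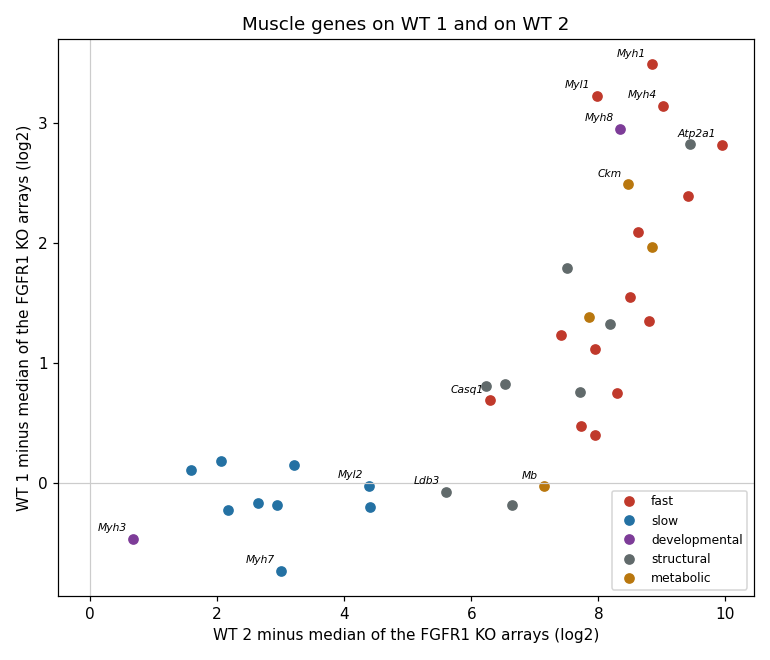
WT 2 minus the median of the FGFR1 KO arrays (horizontal axis, log2) against the same difference for WT 1 (vertical axis, log2), with a point per gene coloured by class. By representative probe, slow genes lie near 0 on WT 1, while Myh1, Myl1 and Myh4 lie highest, at 3.49, 3.23 and 3.14.

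Among the FGFR1 KO arrays, FGFR1 KO 2 was the highest for 22 of 37 members and 11 of 14 fast members. The same share over all probes was not computed, so nothing is read from these counts. FGFR1 KO 2 also had the lowest share of spots with red above background among the FGFR1 KO arrays (68.9%). The value of FGFR1 KO 2 minus the median of the other FGFR1 KO arrays was 0.63 over fast members and 0.08 over slow members. Detection followed no such order: 29, 29, 32 and 31 of the 37 members were above background on FGFR1 KO 1 to 4, and 25, 36, 18 and 25 on WT 1 to 4. Of the representative probes, 15 of 37 lay in a block of the array, starting at row 97 and column 83 and reaching the last column, where 69.8% of 96 negative control spots exceeded 50 red intensity units over local background on some array (1.42% of 212 outside it), beside 31.8% of all probes. Among fast members 7 of 14 lay there (Myh2, Myh4, Myl1, Tnnt3, Actn3, Casq1 and Pvalb), and among slow members 2 of 9 (Myl2 and Mybpc1).

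The genotypes were compared in the 7 arrays that did not choose the genes, 4 FGFR1 KO against WT 1, 3 and 4. Of the 37 members 30 were tested, and 7 (Myh1, Myh2, Mylpf, Myoz2, Myh3, Actn2 and Myot) were above background on fewer than 3 of the 7 arrays and were not. No member passed the test. By limma, with p-values adjusted by Benjamini-Hochberg over the 42722 probes tested, 0 of 30 were lower in FGFR1 KO (0.0328% of all probes) and 0 of 30 were higher (0% of all probes). At an unadjusted limma p under 0.05, 1 member was lower (5.57% of all probes) and 1 higher (3.5%). In 1 member all FGFR1 KO arrays lay below the 3 WT arrays (4.4% of all probes) and in 1 all lay above (4.38%), which is near the background. These were Casq1 and Tnni1, a fast and a slow gene.

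Casq1 averaged 0.34 ± 0.17 (SD, n = 4) across the FGFR1 KO arrays against 1.11 ± 0.43 (SD, n = 3) across WT 1, 3 and 4, a difference of -0.77 ± 0.22 (SE; limma adjusted p = 0.364; exact two-sided permutation p = 0.0286, the smallest that 4 against 3 arrays allow). Tnni1 had 0.23 ± 0.08 (SD, n = 4) against -0.15 ± 0.13 (SD, n = 3), a difference of 0.39 ± 0.14 (SE; limma adjusted p = 0.469; exact permutation p = 0.0286). The Casq1 probe lies in the bright part of the array and was above background on 1 of the 3 WT arrays, and the Tnni1 probe lies outside it and was above background on 1 of the 3. Next by p were Myh7 with a difference of 0.45 ± 0.22 (SE; limma adjusted p = 0.602) and Myl1 with -1.51 ± 0.77 (SE; limma adjusted p = 0.610). The 95% interval of the Myl1 difference ran from -3.26 to 0.23, and without WT 1 the difference was -0.67.

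Further down, the differences between FGFR1 KO and the 3 WT arrays were -0.76 ± 0.45 (SE) for Tnnt3, -0.26 ± 0.16 for Tnnt1, 0.55 ± 0.37 for Mb, -0.34 ± 0.24 for Ryr1, 0.25 ± 0.21 for Myl2, -0.52 ± 0.44 for Tcap, -0.75 ± 0.65 for Tnni2 and -0.49 ± 0.49 for Eno3, with limma adjusted p from 0.671 to 0.823. Without WT 1 the differences of Tnnt3 and Ryr1 were -0.16 and -0.074, and those of Tcap, Tnni2 and Eno3 turned above 0. The fitted difference was below 0 in 22 of the 30 members, with a median of -0.26, while 46.0% of all probes were below 0, with a median of 0.02. Fast members were below 0 in 10 of 11 cases (median -0.70) and slow members in 3 of 8 (median 0.04). Without WT 1, 7 of the 30 members were below 0, and the median turned to 0.22 (0.23 for fast and 0.02 for slow members), so the direction over fast members rested on that array. With WT 2 kept in, 32 of 32 members tested were below 0 (median -2.14), and limma again called 0. WT 2 chose the genes, and the members beyond the 30 passed the background filter only through it, so nothing is read from that direction.

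**Figure D4:**
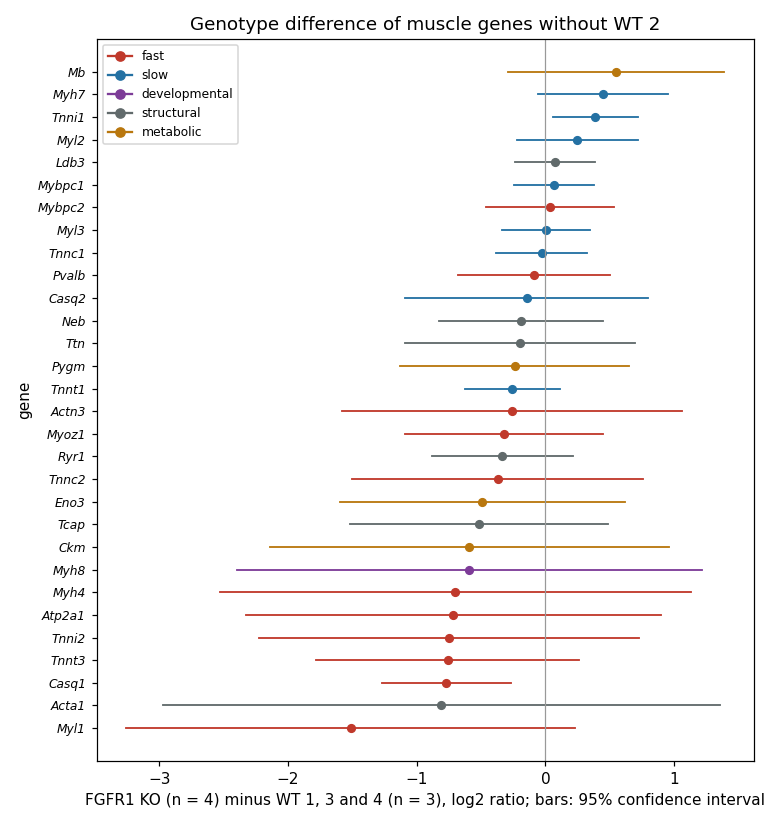
Fitted difference between FGFR1 KO (n = 4) and WT 1, 3 and 4 (n = 3) on the log2 scale (horizontal axis) for the 30 genes tested (vertical axis), with bars for the 95% confidence interval and colours for the class. The intervals of Casq1 and Tnni1 leave out 0, before any adjustment for the number of probes, and the intervals of the other 28 genes include it.

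Further muscle genes came from lists that do not define the set. These lists too were chosen with earlier results of these data known, so their counts are descriptions without a test. An excess of at least 3 log2 on WT 2 was found in 1.17% of all probes. Of 26 other sarcomere genes, 15 had such an excess, led by the M-band protein Myom2 (6.73) and the tropomyosin Tpm2 (6.58). Calcium and excitation genes did so in 11 of 17 cases, led by Tmem38a (6.04), a cation channel of the sarcoplasmic reticulum, and Srl (5.91, above background on 1 of the other 7 arrays), the reticulum protein sarcalumenin. Other genes of muscle metabolism did so in 12 of 19 cases, among them the muscle cytochrome oxidase subunit Cox6a2 (8.51) and the mitochondrial creatine kinase Ckmt2. Ckmt2 was not above background on the other 7 arrays, and in red signal WT 2 was at least 362-fold higher than FGFR1 KO. Of the genes counted in these 3 lists, 4, 2 and 1 were dim on the other 7 arrays, so their excess is set against background. On WT 1 the medians of these 3 lists were 0.26, -0.13 and 0.37. In the 7-array comparison limma called 0 of the 21, 11 and 16 genes tested in these lists after adjustment. At an unadjusted limma p under 0.05, Trdn was higher (0.56 ± 0.21 SE, adjusted p = 0.469), beside 3.5% of all probes. Cox8b was lower (-2.39 ± 0.96 SE, adjusted p = 0.505), beside 5.57%. Trdn was above background on 4 of the 7 arrays and Cox8b on 5. Cox8b read 5.10 on WT 1, 0.34 on WT 3 and 1.66 on WT 4, and up to 0.96 on the FGFR1 KO arrays, so its difference leaned on WT 1. Cox8b is also used by brown fat.

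Genes of muscle stem cells and of the nerve contact had an excess of that size less often. Of 10 neuromuscular junction genes 0 reached 3 log2, and the acetylcholine receptor subunits Chrng (2.07) and Chrne (1.82) had the highest excess. Of 16 satellite cell and myogenic genes 1 did, the transcription factor Mef2c (3.81), followed by Myf6 (2.47, above background on 2 of the other 7 arrays), the myogenic factor of mature fibres. The stem cell marker Pax7 (0.59, not above background on WT 2), Myod1 (-0.13) and Myog (-0.28) are named after their values were seen. Of 12 cardiac genes 1 did, the cardiac actin Actc1, which skeletal fibres also use. It was dim on the other 7 arrays, and WT 2 was at least 42.0-fold higher than FGFR1 KO in red signal. Nkx2-5 was next (1.74, above background on 2 of the other 7 arrays). The smooth muscle list reached 3 log2 in 2 of 10 cases, Synpo2 (6.33, above background on 2 of the other 7 arrays) and Pcp4l1, which was dim on those 7 and at least 9.22-fold higher on WT 2 than in FGFR1 KO in red signal, while the smooth muscle myosin Myh11 was at 0.24.

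Markers of other cell types moved with the muscle genes on WT 2 and WT 1. The white adipocyte list had a median of 4.29 on WT 2 and 3.15 on WT 1 and of 0.16 to 0.64 on the other 6 arrays, and 8 of its 11 genes had an excess of at least 3 log2, led by Car3 (7.60) and the fatty acid carrier Fabp4 (6.47). The brown adipocyte list had medians of 3.18 and 2.59 on WT 2 and WT 1 and of -0.05 to 0.21 elsewhere. Of its 6 genes, 3 had an excess of at least 3 log2 and 5 were highest on WT 2. Its defining gene Ucp1, the uncoupling protein of brown fat, read 8.83 on WT 2 and 6.63 on WT 1, while the other 6 arrays did not exceed 0.34. Elovl3 was instead highest on WT 4 (5.64), with 3.67 on WT 2 and 3.81 on WT 1. Nuclear respiratory chain genes had a median of 3.11 on WT 2, 0.74 on WT 1 and -0.45 to 0.61 elsewhere, and 13 of 13 were highest on WT 2. Luminal genes moved the other way, with Cldn3, a tight junction protein, at -0.06 on WT 2 and 5.95 to 7.59 on the other arrays. Their part in the muscle values was not tested.

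**Figure D5:**
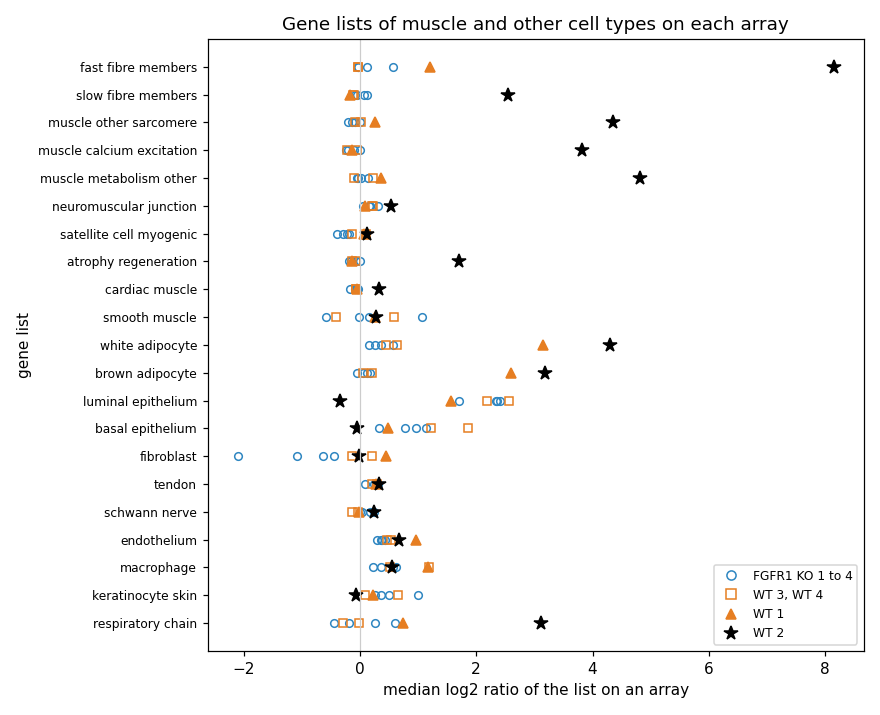
Median log2 ratio (horizontal axis) of the fast and slow members and of 19 other gene lists (vertical axis) on each array. WT 2 and WT 1 stand to the right for fast muscle and both adipocyte lists, and WT 2 stands to the left for luminal epithelium at -0.34.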

How the data were processed

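Total RNA of 8 tumours was read on 1 2-colour Agilent array each. Per the file headers, the authors scanned them with Feature Extraction 11.0.1.1, and probes were designed on mm9. The deposited median signal and background columns are linear intensity, uncorrected. The deposited ratio column is log10 of red over green processed signal, and the deposited series matrix holds, judging by its values, log2 red over green (column medians -0.0155 to 0.0152, correlation 0.985 to 0.991 with the values used here), with its normalization and centring not given in the sources used here. The labels name only cy3, while the labelling protocol gives red to the tumour and green to the reference. Green varied less within groups over 21513 probes (median SD 0.162 and 0.175 against 0.275 and 0.352).

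In R 4.3.3 with limma 3.58.1, normexp (offset 50) on median signals and loess within arrays were applied, control and outlier spots having weight 0, and spots of a probe were averaged. Where a gene had several probes, the one with the highest mean red signal stands for it. Names came from an NCBI gene table and upstream sequences from RefSeq (both GRCm38.p6). A probe was tested where its red spot exceeded background on 3 or more of the 7 arrays without WT 2 and each group had at least 2 values; limma's lmFit and eBayes gave two-sided p-values, which were adjusted by Benjamini-Hochberg over every probe tested (threshold 0.05). The fit was tested on simulated data. Red folds and bounds use A-quantile normalized red signal and, without dye swaps, are open to dye bias.

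The members and all lists were chosen with earlier results of these data known. Changes with errors are given for the 12 members with the smallest limma p, and from each other list the 2 genes with the largest WT 2 excess or the smallest p may be named. Arrays were not paired by replicate number in the main fit. Deviations of the same-numbered arrays 1, 3 and 4 correlated at -0.01, 0.07 and -0.13. These values show no sign of pairing, but so few arrays cannot exclude it. Alternatives covered the ratio, loess, the filter, the bright part of the array, probe choice, the variance model, array weights, a replicate block and leaving out each array.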

Additional observations from a re-analysis of the deposited data

Results flagged for a closer look

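WT 2 chose the genes, so only the FGFR1 KO arrays were examined for a value far from the other 3. Of the 37 members, Dixon's test marked 2, both on FGFR1 KO 2: Myh4, the IIb myosin heavy chain (2.09), and Ttn, the spring protein titin (0.82). Both probes lie in the bright part of the array and have low signal. Before normalization, red over background for Myh4 was 174 on FGFR1 KO 2 and 46 to 70 on the other FGFR1 KO arrays. For Ttn it was 75.5 on FGFR1 KO 2 and 53.5 to 80 on the others. Chance marks about 1 group in 20. No class median was marked.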

How the results depend on the processing

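The count of 0 members called in either direction after adjustment was the same under every alternative run, while the probes called lower over the whole array, 14 in the report, were 0 to 213 where counted, the most with no background filter and 67 without WT 4. The median difference of the tested members, -0.26, was -2.14 with all 8 arrays, -0.38 with the replicate block, which changed no call, and -0.45 to 0.22 with 1 array left out, the highest value being without WT 1. The count of members with all FGFR1 KO arrays below the other WT arrays, 1 in the report, was 0 with Agilent's log ratio, with red signal alone, with probes above background on all 7 arrays and outside the bright part, and 2 without loess and with the mean of a gene's probes. With 1 array left out it was 1 to 3, the highest without FGFR1 KO 2. The slow excess, 2.96, was 2.65 without loess. The developmental excess, 4.74 over 2 genes of which Myh3 is below background, was 5.60 with Agilent's log ratio and 5.51 with red signal alone. With all 8 arrays, Mb (-1.34), Myh7 (-0.42), Myl2 (-0.91) and Tnni1 (-0.25) turned to lower in FGFR1 KO. Those 8 arrays include WT 2, which chose the genes, so nothing is read from the direction in that setting. With 1 array left out, Eno3 ran from -0.90 to 0.21, Tcap from -0.92 to 0.13 and Tnni2 from -1.21 to 0.023, each turning without WT 1. The cause was not tested. Single members above background on few arrays carry the least signal.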

Other observations

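Lists of other tissues that can lie around a tumour gave these values. Muscle atrophy and regeneration genes had a WT 2 excess of at least 3 log2 in 2 of 9 cases. These were Mustn1 (3.79) and Trim63 (3.31), the latter a ubiquitin ligase of muscle protein breakdown. Of 6 tendon genes 0 did, with Comp (1.64, above background on 1 of the other 7 arrays) and Thbs4 (1.51) highest. Among 6 Schwann cell and nerve genes, Prx (3.98) did. The endothelial list (median 0.67 on WT 2, 0.30 to 0.96 elsewhere) and the macrophage list (0.55 on WT 2, 0.22 to 1.19 elsewhere) lay within the range of the other arrays on WT 2. The keratinocyte list (-0.06) and the basal epithelial list (-0.05) were lowest on WT 2. Fibroblast genes had a median of -0.02 on WT 2. In the 7 arrays without it, 8 of 9 were lower in FGFR1 KO at an unadjusted limma p under 0.05, beside 5.57% of all probes. The Lum difference was -2.18 ± 0.49 (SE, limma adjusted p = 0.231), and 0 of the list were called after adjustment. This list was chosen with earlier results known, so nothing is read from the count.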
